A study of Homo sapiens with 14 samples.

Results

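SKI binding sites that lay outside promoters, either just outside the window round a gene start or in an exon, and that carried no RUNX1 peak were examined in HL60 cells. The sites were taken from the peaks of SKI in unmodified cells, replicate 2, whose deposited position class was upstream or exon. Each had to overlap, by at least 1 bp, a SKI peak of unmodified cells, replicate 1, and a SKI peak of the control cells, and no RUNX1 peak. This gave 496 of 14431 peaks (3.44%), of which 293 were upstream and 203 exonic. Shared sites without RUNX1 made up 48.6% of the list in all classes together. The sites were chosen by measured peaks, so their presence in the 3 SKI lists, their strength beside other peaks and their lack of RUNX1 are described and not tested. The tests below only compare the 2 classes, and those of fold enrichment and nearness to RUNX1 draw on the same lists that chose the sites.

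HL60 is a line of human acute myeloid leukaemia cells, which mature into granulocyte-like or monocyte-like cells when treated with suitable agents. SKI is a transcriptional corepressor with no enzyme activity of its own. It reaches chromatin through partners such as the SMAD proteins, the signal carriers of the TGF-beta pathway, and brings in complexes with histone deacetylases. RUNX1 binds DNA directly and is needed for blood cell formation. Sites away from gene starts can be enhancers or the starts of transcripts missing from an annotation, and the peak lists alone do not tell these apart.

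The series used chromatin immunoprecipitation and sequencing on 14 samples to map SKI against other factors and histone marks. The 4 lists used here were SKI in unmodified cells (labelled WT, 2 replicates), SKI in CRISPR/Cas9 control cells (labelled CTR-1, 1 sample) and RUNX1 in unmodified cells (1 sample). The other 10 samples, among them SKI in cells labelled KO and samples labelled IgG, were not analysed here. The SKI peaks were therefore not checked against them. The labels do not say whether the control cells are a single clone, nor whether the replicates are separate cultures, and peak lists hold no expression with which to check the cell line. The SKI lists held 54841, 14431 and 14019 peaks in the order unmodified replicate 1, unmodified replicate 2 and control cells, an order kept for all values below, and the RUNX1 list was shorter than each of them. Library depth is not given in the sources used here. Median tags per peak were 97, 56 and 61 in the SKI lists and 56 in the RUNX1 list. Since RUNX1 was mapped in 1 sample, "without RUNX1" means that no peak was called there. Positions of sites are on hg19, as deposited.

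A microRNA gene was the nearest gene of 19 sites, and 4 mature products are shown because their genes held the widest upstream sites, one of the strongest exonic sites, or a site of both classes. Of the 17 microRNA genes, 12 matched a RefSeq entry by symbol. The sequences are from RefSeq (GRCh38.p14) and run 5′ to 3′, with the seed, bases 2 to 8, in capitals. No seed was shared between the matched genes.
hsa-miR-23a-3p: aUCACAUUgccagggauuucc
hsa-miR-26b-5p: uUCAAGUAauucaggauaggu
hsa-miR-4648: uGUGGGACugcaaaugggag
hsa-miR-3202: uGGAAGGGagaagagcuuuaau

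The site near MIR23A lay at 3442 bp before the nearest start (chr19:13949685-13951105), was 1421 bp wide, and had SKI fold enrichments of 59.96, 10.50 and 11.68. That near MIR26B (chr2:219271075-219272357) lay 4011 bp past the start, was 1283 bp wide and had values of 75.49, 17.43 and 14.36. At MIR4648 an exonic site (chr7:2568638-2569057) had values of 111.93, 30.20 and 28.74, with a RUNX1 peak only 214 bp away. MIR3202-1 had an upstream site (84.79, 14.58 and 18.06) and an exonic one (68.78, 21.52 and 22.00). In each of these 5 sites the value of replicate 1 was the highest of the 3 lists, as it also was in the medians of both classes given below.

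Promoter sequence is shown for 2 genes that had a member site at a distance and also a SKI peak at the start itself. Of 38 such genes, with a shared TSS-class peak within 50 bp of the start, 26 had a RefSeq promoter. PRTN3 stood in one of the gene lists used below, and BHLHE40 was added by hand. PRTN3 encodes proteinase 3, a serine protease of neutrophil granules, and BHLHE40 encodes a basic helix-loop-helix repressor. Each is the 250 bases before the start (RefSeq, GRCh38.p14, plus strand, 5′ to 3′), PRTN3 at chr19:840749-840998 and BHLHE40 at chr3:4979187-4979436. Capitals mark matches, on either strand, to the letters TGTGGT for RUNX, the palindrome GTCTAGAC for a pair of SMAD proteins, the core CCGGAA for ETS factors, the site TGANTCA for AP-1, the site TTGCNNAA for CEBP proteins, the GC box GGGCGG bound by SP1, the CCAAT box and the E-box CACGTG bound by helix-loop-helix factors. Matches may overlap, as a CEBP and a CCAAT match do in PRTN3.
PRTN3: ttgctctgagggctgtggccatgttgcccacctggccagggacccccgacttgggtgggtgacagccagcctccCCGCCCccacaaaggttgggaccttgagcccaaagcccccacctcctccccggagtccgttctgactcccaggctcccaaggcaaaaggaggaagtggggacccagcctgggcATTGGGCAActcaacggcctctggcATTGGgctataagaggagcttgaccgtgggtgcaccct
BHLHE40: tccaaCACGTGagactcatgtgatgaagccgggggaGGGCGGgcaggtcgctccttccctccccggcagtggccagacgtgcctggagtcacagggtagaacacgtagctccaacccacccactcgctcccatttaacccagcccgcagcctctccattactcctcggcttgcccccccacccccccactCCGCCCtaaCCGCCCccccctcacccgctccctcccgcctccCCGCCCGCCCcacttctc

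The PRTN3 window held 1 CEBP match, 1 GC box and 2 CCAAT matches, and the BHLHE40 window held 5 GC boxes and 1 E-box. Over all 35116 RefSeq promoters of this length a GC box was present in 42.6%, CCAAT in 32%, a CEBP match in 9.05% and the E-box in 6.34%. The SMAD pair occurred in 0.182%, RUNX in 11%, ETS in 14.5% and AP-1 in 6.57%. In the 51 promoters of the 26 genes, the shares were 62.7% for the GC box, 23.5% for CCAAT, 5.88% for CEBP and 3.92% for the E-box. They were 13.7% for RUNX, 9.8% for ETS, 1.96% for AP-1 and 0% for the SMAD pair. These differences were not tested. The SKI peak at the PRTN3 start had fold enrichments of 77.79, 12.22 and 20.03 and no RUNX1 peak, whereas its member site, 4367 bp before the start (chr19:836357-836819), had 103.92, 17.46 and 7.75. The distal site was therefore the higher of the 2 in the unmodified lists and the lower in the control list. At BHLHE40 the peak at the start had 94.44, 49.23 and 94.57 and did carry RUNX1. Its exonic member (chr3:5025368-5026171, 3958 bp past the start) had 107.02, 60.80 and 41.34, and the nearest RUNX1 peak was 4314 bp away. Of the sites, 81 upstream (27.6%) and 71 exonic (35%) had a nearest gene with a peak of the TSS class (a listed distance of up to 2075 bp from a start) that recurred in all 3 SKI lists.

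The first question was how the rule divided the upstream and exonic peaks. Of 760 upstream peaks, 507 (66.7%, 95% Wilson interval 63.3 to 70) recurred in both other SKI lists, and of 546 exonic peaks 372 did (68.1%, 64.1 to 71.9), beside 70.1% of all peaks of the list. No RUNX1 peak was present at 57.8% (53.4 to 62) of the shared upstream and 54.6% (49.5 to 59.6) of the shared exonic peaks, beside 69.3% of all shared peaks. A RUNX1 peak lay on 42.2% and 45.4% of the 2 classes, close to the 44.7% of introns and 47.1% of intergenic peaks. The TSS class stood apart, with RUNX1 on 16.5% of its shared peaks. The counts of sites rest on the lists required: without the control list the rule gave 514 upstream and 345 exonic sites, and without replicate 2, with the peaks of the control cells in its place, 433 and 346.

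**Figure D1:**
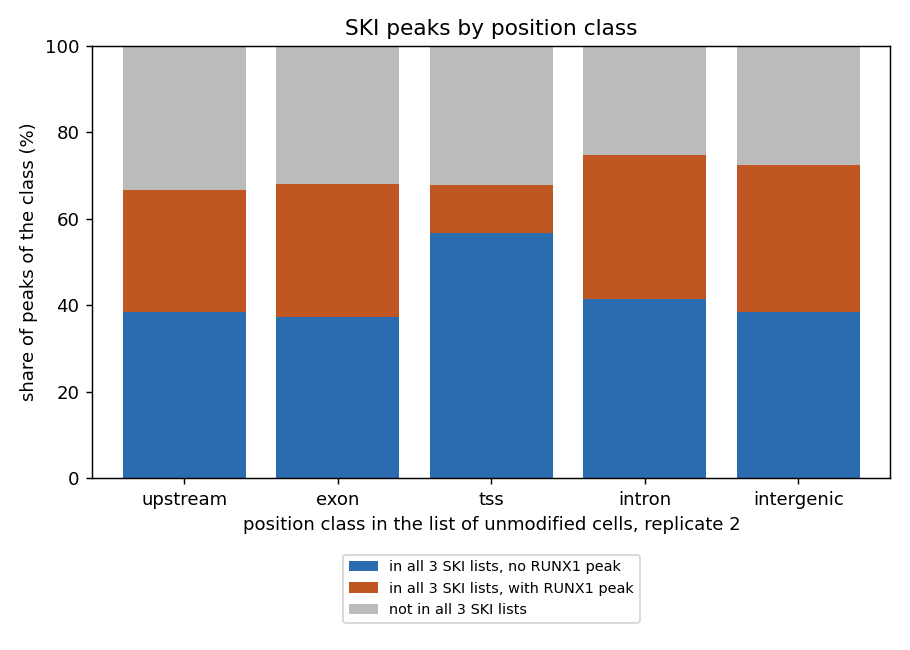
Share (%) of the peaks of unmodified cells, replicate 2, in each deposited position class, split by recurrence in all 3 SKI lists and by overlap with a RUNX1 peak. The part shared without RUNX1 is similar in the upstream, exonic, intronic and intergenic bars (38.6%, 37.2%, 41.4% and 38.4%). Recurrence in all 3 lists is lower in the upstream (66.7%), exonic (68.1%) and TSS (67.8%) classes than in the intronic (74.9%) and intergenic (72.5%) ones. The TSS class has the smallest share with RUNX1.

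SKI enrichment was nearly equal in the 2 classes. Fold enrichment is the authors' ratio of a peak over background, and where several peaks of a list overlapped a site the highest was taken. Upstream sites had medians of 55.6 (quartiles 39.4 to 80.1), 11.8 (8.48 to 17.3) and 12.2 (8.72 to 18.8) in the 3 lists. Exonic sites had 54.1 (36.8 to 71), 11.6 (8.07 to 17.1) and 12.2 (8.69 to 21.2). The upstream median was higher by 1.43, 0.25 and 0.08, a mean difference of 0.587 (exact sign-flip permutation over the 3 lists, two-sided, p = 0.25, the smallest that 3 lists allow). The mean rests mostly on replicate 1, whose values are the largest. As 3 lists cannot give a lower p and the same lists chose the sites, nothing is concluded from this test. The difference was far smaller than the spread between sites of a class. Within its own list the median upstream site stood at percentile 89, 59.3 and 52.7, and the median exonic site at 88.4, 57.6 and 52.3. These are typical peaks of replicate 2 and of the control cells but high-ranking ones of the long replicate 1 list, in which the overlapping peaks were also wider (median 1386 bp upstream and 1457 bp exonic, against 470 and 480 bp in replicate 2). The high rank in replicate 1 was not particular to these sites, all of which had also to be in the shorter SKI lists. Sites without RUNX1 stood there at percentile 90.2 (intronic), 89 (intergenic) and 80.2 (TSS class), and those with RUNX1 at 93.3 (upstream) and 92.2 (exonic).

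**Figure D2:**
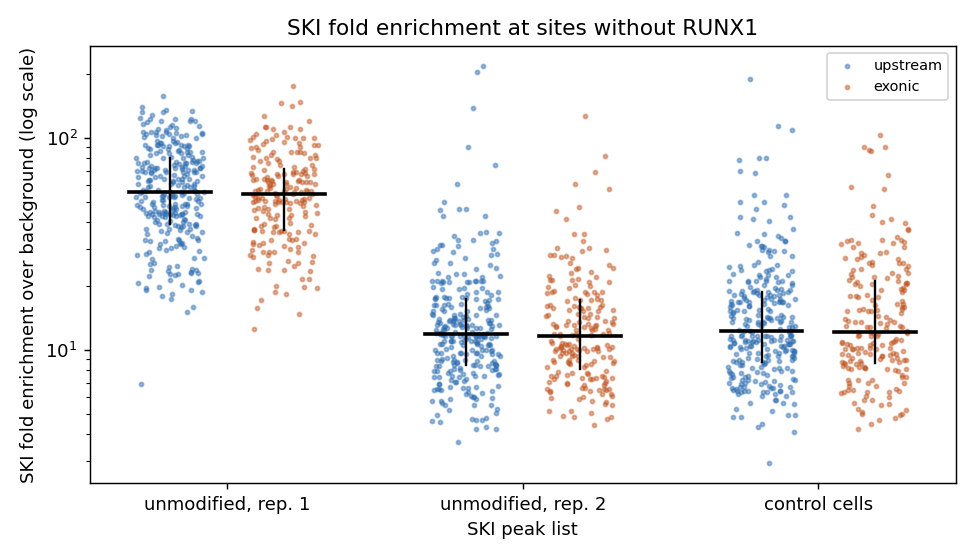
SKI fold enrichment (log scale) of the 293 upstream and 203 exonic sites in each SKI list; each point is a site, the horizontal bar the median and the vertical bar the quartiles. The 2 classes overlap almost completely in every list, and replicate 1 lies higher than the other lists.

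Sites without RUNX1 were weaker SKI sites than those of the same class with it. Upstream sites with RUNX1 had medians of 69.6, 15.1 and 18.4, and exonic ones 65.7, 16.4 and 21.8. Peaks of the TSS class without RUNX1 were lower still, at 39.2, 9.85 and 11. Intronic sites without RUNX1 (58.9, 12.2 and 13.9) and intergenic ones (55.5, 11.4 and 13.3) were close to the upstream and exonic values. These medians describe peaks along the same chromosomes, and the differences were not tested.

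Among upstream sites the 10 whose lowest rank over the 3 lists was best included 3 with a protein-coding nearest gene, beside 45.7% of all upstream members. First was a site near the pseudogene AC098592.7 (chr7:16980246-16980946), with fold enrichments of 139.67, 137.65 and 80.03. A site near A4GNT, which encodes a glycosyltransferase of gastric mucin, had 128.37, 45.82 and 69.77 (chr3:137855572-137856212). A site 1781 bp before the olfactory receptor gene OR1D5 (chr17:2968465-2968926) had 121.98, 204.45 and 189.05, and one 1826 bp before OR1D4 (chr17:3141943-3142449) had 111.75, 218.47 and 113.05. OR1D4 and OR1D5 are near-identical copies, and reads could be split between them, so the 2 sites may not be separate. The same holds for LIMS3 (105.95, 30.79 and 40.44), which belongs to a duplicated family. The list of 10 was completed by sites near AL590226.1, the small nucleolar RNA gene SNORD56, RP11-467C18.1 and 2 other lincRNA genes. None of the 10 had a RUNX1 peak within 5000 bp, and 19.1% of all upstream members did.

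Of the 10 exonic sites ranked by the same measure, 6 had a protein-coding nearest gene, beside 73.4% of all exonic members. UBE2CP4, a pseudogene, led with 126.95, 57.35 and 58.60. NOS3, which encodes the nitric oxide synthase of endothelium, had 120.08, 126.82 and 87.52 (chr7:150693727-150694589, 3431 bp past the start), the highest value of any exonic site in replicate 2. BHLHE40, described above, was next. ABCB8, which encodes a mitochondrial transporter, had 100.10, 41.40 and 33.09, and its site was of the TSS class in both other lists. HOXD-AS1, an antisense transcript of the HOXD cluster, had 99.71, 68.97 and 90.44 (chr2:177039560-177040071). PLEC, which encodes the cytoskeletal linker plectin, had 176.08, 30.29 and 31.86. KB-1732A1.1, MYBPC3, MIR4648 and the complement gene C3 completed the 10. Sites in the strongest 10% of all 3 lists numbered 17 upstream and 11 exonic.

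Members at the other end of the range were near the calling limit. The lowest −log10 p in replicate 2 belonged to AC012307.2 (5.107), RP11-432J24.2 (5.164) and BX470187.1 (5.315) among upstream sites. Among exonic sites the lowest belonged to C14orf182 (5.222) and GOLGA3 (5.419), which encodes a Golgi protein. These 5 sites had fold enrichments under those of the medians in replicate 2, from 4.22 for AC012307.2 to 5.49 for GOLGA3. The widest sites, beside those at MIR23A and MIR26B, were near MRPL35P2 (2052 bp) in the upstream class and near DBN1 (1480 bp), GPR84 (1256 bp) and RP11-432J24.2 (1063 bp) in the exonic class.

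Between replicate 2 and control cells most sites differed by less than 2 times. The ratio of control to replicate 2 had a median of 1.09 upstream and 1.08 exonic. It exceeded 2 at 26 upstream and 24 exonic sites and was under 0.5 at 20 and 13. Among those furthest from equality, chosen after their values were seen, the site at OAF had 9.15 in replicate 2 and 78.66 in control cells, where the wider overlapping peak of the control list, like that of replicate 1, held a RUNX1 peak, and that at RN7SKP203 had 42.71 and 10.94. As the control cells gave 1 list, such differences have no replicate check. Across sites, which share libraries and are not replicates, Spearman's rho between replicate 2 and control cells was 0.584 upstream and 0.532 exonic.

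**Figure D3:**
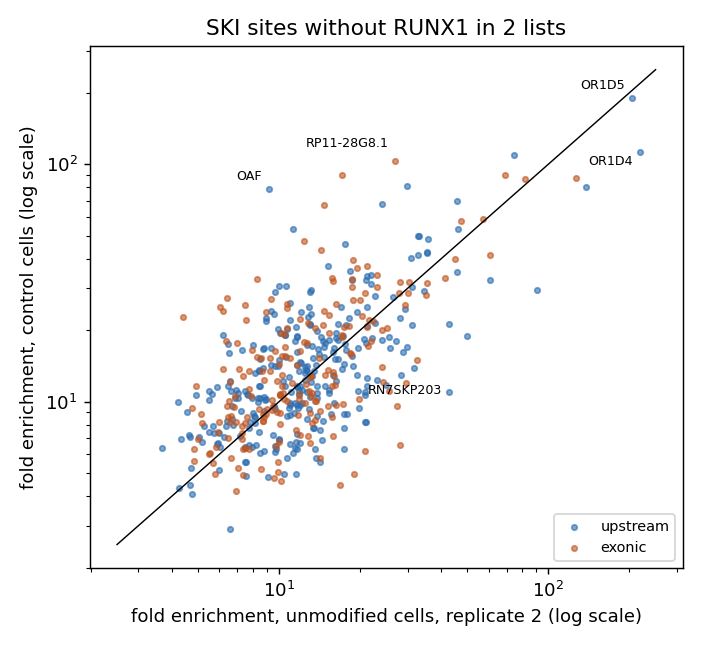
SKI fold enrichment of each site in replicate 2 of unmodified cells (horizontal) and in control cells (vertical), both on log scales, with the line of equality. Most sites of both classes lie near the line, and OR1D5 and OR1D4 are at the upper end.

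The second question was where the sites lay relative to genes. The deposited class named upstream ignores strand. In the whole list it held peaks at 1354 to 5655 bp from a start on either side, and 32.8% of the members (96 of 293) lay past the start rather than before it, the same share as over all 760 upstream peaks (32.8%). The nearest to a start were at TNFRSF18 (1386 bp before), RN7SL391P (1395 bp past), PLEKHH3, KCNQ5 and FOXO3, and among the farthest were those at ZNF77 (5655 bp before), TUBB2A, NEAT1 and RN7SL607P. The median unsigned distance was 3252 bp. Exonic members lay past the nearest start in 73.9% of cases (150 of 203), beside 70.9% of all exonic peaks. For the other 53 the exon is not one of the transcript named as nearest, and the deposited table does not say whose exon it is. Their median unsigned distance was 3958 bp, and 32 sites lay more than 10000 bp from a start. The farthest were near RP11-719N22.1 (213509 bp past), PAX2 (78182 bp past), MTMR1 (32341 bp past), RPTOR (31021 bp before, chr17:78865170-78865813) and ZNF280D (30319 bp past).

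**Figure D4:**
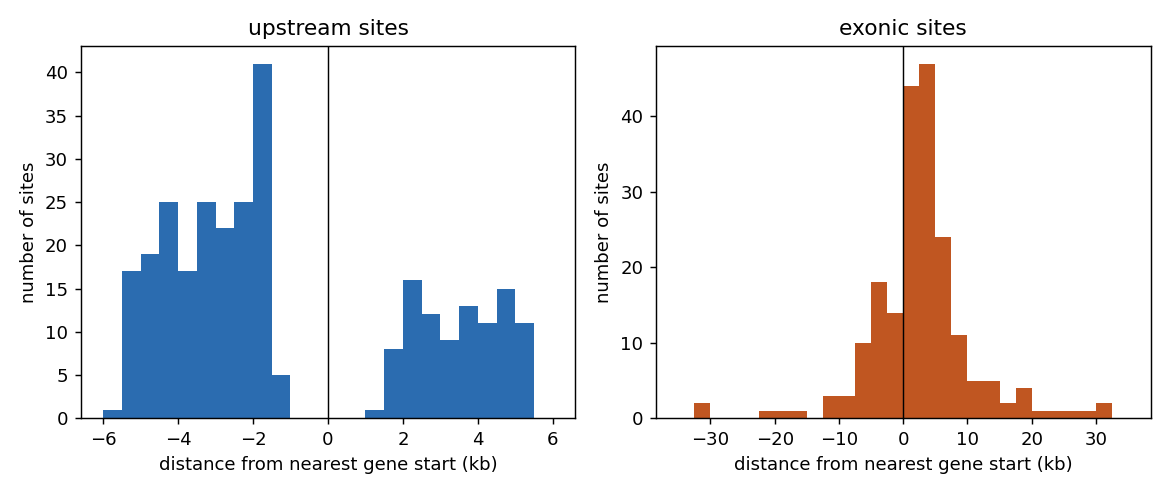
Number of sites by signed distance (kb) from the nearest gene start, negative before the start, for upstream sites (left, bins of 0.5 kb) and exonic sites (right, bins of 2.5 kb); the 2 exonic sites at PAX2 and RP11-719N22.1 lie beyond the axis. Upstream sites occur on both sides of the start and none near it, while exonic sites are mostly past it.

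The kind of nearest gene differed between the classes. A protein-coding gene was nearest to 134 of 293 upstream sites (45.7%, 95% Wilson interval 40.1 to 51.5) and to 149 of 203 exonic sites (73.4%, 66.9 to 79). By Fisher's exact test, two-sided, the odds ratio of upstream over exonic was 0.305, with a Benjamini-Hochberg adjusted p over 4 tests of 3.48e-09. Among the other upstream sites, 58 were nearest to a pseudogene, 45 to a lincRNA gene, 13 to an antisense gene, 12 to a microRNA gene and 12 to a miscellaneous RNA gene, and the rest to rarer kinds. In the exonic class there were 8 pseudogene, 15 lincRNA, 18 antisense and 7 microRNA sites. Class and biotype both come from the annotation of the peaks, so the test does not separate SKI binding from annotation. The difference was not particular to these sites. It was present in all peaks of the list, with a coding gene nearest to 49.1% of 760 upstream and 70.7% of 546 exonic peaks. It was smaller among shared sites with RUNX1 (49.5% and 63.3%). That change with RUNX1 was not tested. Sites along a chromosome are not independent, so this p and those below come out too small, and none of them measures how cultures vary.

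**Figure D5:**
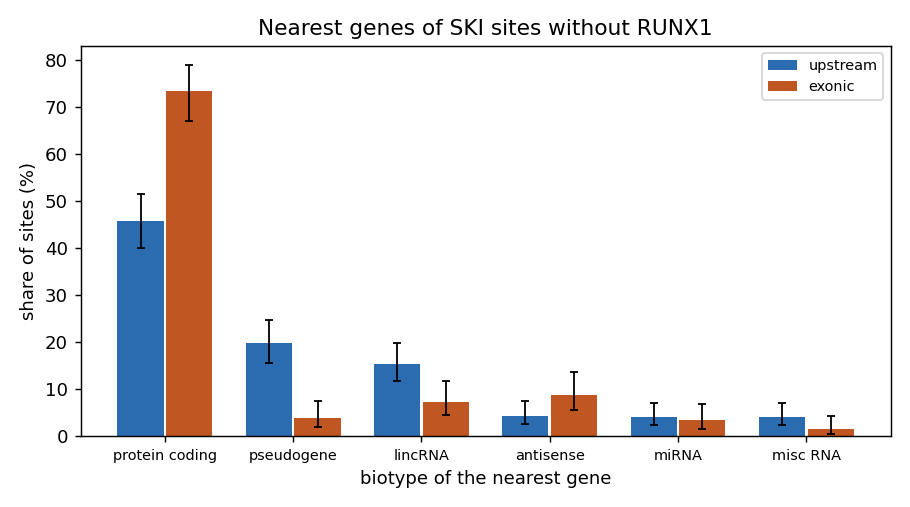
Share (%) of upstream and exonic sites by biotype of the nearest gene, with 95% Wilson intervals as error bars. Protein-coding genes are nearest to 45.7% of upstream and 73.4% of exonic sites, and pseudogenes and lincRNA genes are more frequent in the upstream class.

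The position class itself was less fixed in the wider peaks of replicate 1 than in the control list. There, 222 upstream sites (75.8%) and 165 exonic sites (81.3%) kept their class, an odds ratio of 0.72 (Fisher's exact test, two-sided, adjusted p = 0.204). In the control list 269 (91.8%) and 186 (91.6%) did, an odds ratio of 1.02 (Fisher's exact test, adjusted p = 1). Most of the sites that changed turned to the TSS class, 53 upstream and 38 exonic in replicate 1 and 18 and 17 in the control list. Sites of 1 list can also share a peak of another. In replicate 1 the 496 members lay in 474 peaks, 19 of which held 41 members, and in the control list they lay in 481.

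Most sites were far from the nearest RUNX1 peak, and some lay beside one. A RUNX1 peak lay within 10 kb of 90 upstream (30.7%, 25.7 to 36.2) and 47 exonic sites (23.2%, 17.9 to 29.4). This was an odds ratio of 1.47 with an adjusted p of 0.134 by the same exact test. The same RUNX1 list had been used to choose the sites, so nothing is concluded from this test. Within 1000 bp there were 19 and 11 sites, and the median gap was 43623 bp upstream and 50755 bp exonic. The closest were RNPEPL1 (40 bp, exonic; 69.88, 6.41 and 27.36), TNFRSF18 (50 bp, upstream; 95.56, 11.00 and 22.13) and CCR2, a chemokine receptor gene (102 bp, upstream; 96.78, 8.48 and 11.63). RP11-498C9.2 (116 bp, upstream), AP000355.2 (193 bp, exonic) and RP5-968P14.2 (207 bp, exonic) followed. Of the shared sites that the rule left out, those with the smallest overlap with RUNX1 in the upstream class were near RP1-80N2.2 (24 bp of overlap; 71.69, 9.01 and 7.48) and TUBGCP2 (73 bp; 56.16, 5.89 and 60.08), and near a pseudogene (127 bp; 79.75, 17.89 and 18.97). In the exonic class the smallest overlaps were larger, near HECW2 (262 bp; 151.82, 32.40 and 31.57), MIR623 (298 bp; 26.71, 7.19 and 5.81) and CAT, the catalase gene (314 bp; 128.85, 17.06 and 14.08). The sites at HECW2 and CAT lay wholly under a RUNX1 peak.

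At 35 members, 20 upstream and 15 exonic, the wider overlapping peak of replicate 1 did hold a RUNX1 peak, and at 6 upstream and 7 exonic of these the peak of the control list did too. Their replicate 1 peaks had median widths of 2586 and 2620 bp. The replicate 1 fold enrichment had medians of 79.03 and 68.78 there, against 54.23 and 51.93 at the other members, whereas in replicate 2 it was 9.415 and 9.26, against 12.04 and 11.84. In the control list it was 11.63 upstream, against 12.31, and 20.03 exonic, against 12. How much of the replicate 1 or control value at these sites comes from the part of the peak with RUNX1 was not tested. TNFRSF18, CCR2, RNPEPL1, OAF, MIR4648, HIST1H4E and the exonic site of MIR3202-1 are among them.

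The sites were spread thinly over genes. They named 460 nearest genes, of which 275 had an upstream and 195 an exonic member, and 10 had both. Each of 5 genes was nearest to 3 members. NEAT1, the long non-coding RNA that builds paraspeckles, had 2 upstream sites (63.94, 6.61 and 11.10, and 63.94, 11.31 and 8.94) and 1 exonic site (50.42, 15.88 and 7.18), all of them lower at these places than its own start, which had 80.86, 23.56 and 38.28 and carried RUNX1. At the transcribed pseudogene THA1P, 3 upstream sites lay 1718 to 4307 bp before the start, the strongest of which had 80.68, 46.09 and 53.53. LINC00649 had 3 exonic sites under 1 peak of replicate 1 (85.81), with 7.36, 16.05 and 13.16 in replicate 2. THEMIS2, which encodes a signalling protein of lymphocytes and macrophages, and RP11-432J24.2 had sites of both classes, likewise under 1 peak of replicate 1 each.

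Neutrophil and monocyte genes were among the nearest genes. Of 31 myeloid maturation genes named in the files, 4 were nearest to a member (12.9%), beside 1.93% of all protein-coding genes named in a list. The other gene lists below that had a member, families by symbol aside, also stood above this share. Lists this short exceed it as soon as they hold any member. They were also chosen with earlier results of these data known, so no enrichment is read from these shares. CSF3R, the receptor for the growth factor G-CSF, had an upstream site 3682 bp before the start (chr1:36952217-36952874) with 94.58, 13.05 and 10.43. CD14, the co-receptor for lipopolysaccharide, had one 2320 bp past the start with 52.40, 13.41 and 7.75. PRTN3 is described above. MPO, which encodes myeloperoxidase of neutrophil granules, had an exonic site 5730 bp past the start (chr17:56344863-56345554) with 18.66, 6 and 8.18, low in every list. No RUNX1 peak lay within 10 kb of these 4 sites, as was the case for most members of both classes.

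Of 29 haematopoietic transcription factor genes 3 were nearest to a member (10.3%), beside 1.93% of all protein-coding genes. FOS and JUN encode the 2 partners of AP-1, and CEBPB a factor of myeloid maturation. FOS had an upstream site 1549 bp before the start (chr14:75743739-75744112) with 134.06, 17.59 and 17.44 and a RUNX1 peak 1759 bp away. JUN had an exonic site 1585 bp past the start (chr1:59247518-59248489) with 36.67, 12.57 and 11.84. CEBPB had one 1580 bp past the start (chr20:48808796-48809099) with 50.76, 9.21 and 15.28. All 3 lay in the TSS class in replicate 1.

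In the TGF-beta and SMAD signalling list (32 named genes), the pathway in which SKI is a known repressor, 2 genes were nearest to a member. This was 6.25%, beside 1.93% of all protein-coding genes, and both sites were exonic. SMURF1, a ubiquitin ligase of the pathway, had a site 23360 bp past the start (chr7:98718127-98718476) with 95.09, 9.62 and 16.28. Neither SKI nor SKIL nor RUNX1 was the nearest gene of a member.

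Of 25 genes of corepressor complexes, 2 were nearest to a member (8%), beside 1.93% of all protein-coding genes. TLE3, of the Groucho family, had an upstream site 2641 bp before the start (76.44, 7.28 and 16.48), and HDAC5, a histone deacetylase, had an exonic one 1612 bp past it (39.06, 10.00 and 6.73). The HDAC5 site was of the TSS class in both other lists. CDKN1A, which encodes the cell cycle inhibitor p21, was the only 1 of 21 cell cycle genes (4.76%), with 2 exonic sites. The nearer one, at 1628 bp, had 62.45, 24.19 and 13.93 and was of the TSS class in both other lists. The farther one, at 4150 bp, had 62.97, 35.10 and 27.98 (chr6:36650355-36651077). Both stood above the exonic median in every list. RPL19 was the only 1 of 25 translation genes (4%), with 50.05, 24.98 and 11.77. SERPINA1, the alpha-1-antitrypsin gene, was 1 of only 4 genes of the liver and muscle list named in the files (25%). It had 2 upstream sites (71.98, 21.11 and 33.76, and 103.12, 15.81 and 16.19). Lists of retinoic acid response (17 genes named), inflammatory signalling (26), lymphoid (14) and neuronal genes (11) had no member. At a share of 1.93% over all protein-coding genes, lists this short can easily hold none, so nothing is read from it.

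Families taken by symbol contributed few sites each. Of all 24510 genes named in a list, 1.85% were nearest to a member. Zinc finger genes had 8 of 328 (2.44%), 4 of each class, among them ZNF77, ZNF280D and ZNF70. Solute carrier genes had 4 of 283 (1.41%), with the amino acid transporter genes SLC7A5 (86.92, 18.69 and 15.63) and SLC1A5 (29.59, 13.87 and 10.40) upstream and SLC1A4 and SLC29A1 exonic. Symbols with the prefix of ribosomal protein genes, most of them pseudogenes here, had 12 of 320 (3.75%), all 12 with an upstream site. They include RPS19BP1, a gene for a binding partner of a ribosomal protein, which alone had an exonic site as well. MicroRNA genes had 13 of 365 (3.56%). Histone genes had HIST1H4E alone (1 of 52; exonic, 98.96, 22.28 and 21.89, with a RUNX1 peak 464 bp away), and keratin and protocadherin genes had none.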

How the data were processed

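The data were 4 lists of ChIP-seq peaks from HL60 cells, grouped by the sample titles. Per the labels' protocols, chromatin was crosslinked with formaldehyde and sonicated. The builds hg19 and GRCh37 and the tools MACS 1.4, Bowtie2, bcl2fastq and deepTools are named in the submitters' processing notes, without their roles. Which control library served each ChIP is not given in the sources used here, nor is the depth. A peak carries, per the file headers of the deposited lists, a −log10 p-value, a fold enrichment (a ratio over background) and a count of tags. The authors' position class (TSS within 1250 bp, upstream within 5000 bp), nearest gene and TSS distance were taken over. Peaks were listed per sample.

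Overlaps were of at least 1 bp on closed intervals. The 4 comparisons of classes used Fisher's exact test, adjusted by Benjamini-Hochberg, and median folds by an exact sign-flip permutation over the 3 SKI lists. Intervals of shares are 95% Wilson intervals and cover counting error alone. The computations were tested on simulated data. Members and gene lists were chosen with earlier results of these data known. The text names, per class, the 10 sites of smallest worst rank of fold over the 3 SKI lists, members near genes of the lists (up to 5 per list), genes with 3 or more members, and the sites lowest in −log10 p, widest, nearest to RUNX1 and at the extremes of distance. Alternatives were a stricter −log10 p of 10, a minimum of 35 tags, equal list lengths, other overlap and RUNX1 rules, and leaving out each SKI list. No genome of this build was used, so motifs round the summits were not searched. No member lay within 300 bp of a start, so promoter motifs were read at genes that also had a shared TSS-class peak within 50 bp of the start. Some sites that the naming rule selects are not reported here. RefSeq sequences were matched by symbol. The software was scipy 1.17.1, pandas 2.3.3, numpy 2.4.6 and matplotlib 3.10.9 under Python 3.11.15.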

Additional observations from a re-analysis of the deposited data

How the results depend on the processing

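Of 93 values under 14 alternative settings, 84 stayed on the main value's side of no difference between the classes and of the threshold. For counts, they stayed within 1.5 times the main value. With every SKI list cut to the length of the RUNX1 list, 81 upstream and 60 exonic sites were left, the median fold enrichment was 2.35 lower upstream (-2.35, exact permutation p = 0.25) and the odds ratio for keeping the class in replicate 1 was 1.34 (adjusted p = 1). With no RUNX1 peak allowed within 5000 bp, the odds ratio for keeping the class in the control list was 0.98 (Fisher's exact test, adjusted p = 1). Leaving out 1 SKI list at a time gave 299 to 514 upstream and 213 to 346 exonic sites, with 514 and 345 without the control list, 433 and 346 without replicate 2 and 299 and 213 without replicate 1. The odds ratio for RUNX1 within 10 kb then ranged from 1.18 to 1.49. By Fisher's exact test the adjusted p was 0.0375 when replicate 2 was left out (range over all alternatives 0.0375 to 1). Nothing is concluded from it, since the RUNX1 list had also been used to choose the sites. The odds ratio for a protein-coding nearest gene stayed between 0.258 and 0.369 in all 14 settings, with an adjusted p of at most 0.0149. The causes of these changes were not tested, except that shorter lists hold fewer sites by construction. The alternative without the 35 sites whose wider peaks hold RUNX1 was chosen after seeing the data. Unmodified and control cells were not compared as pairs, because the sample titles name no pairs and a replicate number in common does not show pairing. Depth is unknown, so a missing peak is a site not called and not one without binding.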
